A study of Homo sapiens with 9 samples.

Results

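The genes described here are the forkhead factors FOXO1, FOXO3 and FOXO4 and 7 genes known as targets of FOXO factors or as genes of resting cells, namely TXNIP, ARRDC3, ARRDC4, CCNG2, BTG1, BTG2 and SESN3. The 10 genes were chosen by name, with earlier results of these data known, from the 60966 genes in the deposited expression values. H1299 cells, an established line from a human non-small cell lung carcinoma, were transfected with a Scramble control siRNA, Si-FIBP#1 or Si-FIBP#2, and their RNA was sequenced after 48 h. These are different siRNAs against FIBP, which encodes a protein that binds acidic fibroblast growth factor inside the cell. Each of the 3 groups had 3 samples, and all 9 samples were transfected cells of the same line, with no irradiation named in the labels. The samples are described as independent, but whether they were separate cultures is not stated, so the p-values measure the spread between these samples. A pool of a cell line was measured, so a change in the share of cells that are resting and a change in RNA per cell cannot be told apart.

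FOXO factors are transcription factors that act when insulin and growth factor signalling is low. The kinases AKT and SGK1 phosphorylate them, 14-3-3 proteins then hold them in the cytoplasm, and most of the control of their activity is therefore exerted on the protein and not on the mRNA. When FOXO factors are in the nucleus they bind the DNA letters TGTTTAC and close variants and raise genes that stop the cell cycle, limit glucose uptake and protect against oxidants. TXNIP and ARRDC4 are also well known targets of MondoA, a glucose-sensing factor that works with MLX at paired E-box-like sites.

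The sequences before the start of TXNIP, BTG1 and ARRDC4 are shown with the matches to the letters searched here. They come from the RefSeq promoter windows of build GRCh38.p14, which cover 250 bases before to 50 bases after each annotated start, and they are shown from 5′ to 3′ on the strand of the gene. All 10 genes matched this collection, with 15 windows in total. In TXNIP at chr1:145996601-145996829 (minus strand), the capitals mark a FOXO site read on the opposite strand (GTAAACA) and 2 copies of CACGAG that lie 5 bases apart.

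TXNIP: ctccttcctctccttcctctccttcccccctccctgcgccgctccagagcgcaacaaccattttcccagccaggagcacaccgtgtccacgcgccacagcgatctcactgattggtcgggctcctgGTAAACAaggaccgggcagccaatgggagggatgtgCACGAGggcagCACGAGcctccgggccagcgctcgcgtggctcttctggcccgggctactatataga

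In BTG1 at chr12:92145898-92146096 (minus strand), the capitals mark the FOXO site. In ARRDC4 at chr15:97960453-97960697 (plus strand) they mark a single E-box CACGTG and not a pair.

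BTG1: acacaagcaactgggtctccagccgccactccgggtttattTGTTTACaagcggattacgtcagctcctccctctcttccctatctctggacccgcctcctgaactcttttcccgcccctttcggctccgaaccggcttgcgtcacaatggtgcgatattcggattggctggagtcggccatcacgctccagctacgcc

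ARRDC4: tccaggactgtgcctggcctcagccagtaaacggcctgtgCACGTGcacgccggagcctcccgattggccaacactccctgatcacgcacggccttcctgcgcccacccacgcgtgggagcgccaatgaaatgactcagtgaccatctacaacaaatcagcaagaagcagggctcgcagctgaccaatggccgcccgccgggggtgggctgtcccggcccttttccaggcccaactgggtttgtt

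Shorter stretches of 30 bases hold the other matches. The FOXO site of FOXO4 at chrX:71095863-71095892 (plus strand) is read on the opposite strand and lies just after the RefSeq start. The FOXO site of ARRDC3 at chr5:91380108-91380137 (minus strand) belongs to the second annotated start of the gene, and the E-box of CCNG2 lies at chr4:77157166-77157195 (plus strand).

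FOXO4 site: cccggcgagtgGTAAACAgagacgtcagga

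ARRDC3 site: agcccggcactTGTTTACcacggcgcggcc

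CCNG2 site: ccgcggggagtCACGTGccccgcccccttg

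In total, 4 of the 10 genes had the FOXO site TGTTTAC on either strand of a window, namely FOXO4, TXNIP, ARRDC3 and BTG1. Among all 27305 genes with a window, 4.19% had it, and among all 35116 windows 3.42% had it. The related form TGTTTTG was found in none of the 10 genes and in 4.92% of all windows. The E-box CACGTG, which reads the same on both strands, was present in ARRDC4 and CCNG2 and in 8.77% of all genes. A pair of E-boxes 5 bases apart was found in none of the 10 genes. The letters CACGAG were searched only after the TXNIP sequence had been read. They occurred in TXNIP and FOXO3 and in 6.78% of all windows. The pair 5 bases apart occurred in 2 of the 35116 windows, and TXNIP, from which it was copied, is necessarily among them. A match describes the letters and not a bound site. Of the genes that rose under an siRNA, as described below, FOXO4, ARRDC3 and BTG1 had a FOXO site and CCNG2 had none. TXNIP also had one, but its level was too low to give a direction, and the remaining genes had none. The FOXO4 site lies after the start. The ARRDC3 stretch overlaps exons of ARRDC3 itself, and the BTG1 stretch overlaps exons of the antisense gene AC025164.1. A link between site and change was not tested.

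The knockdown was checked first. FIBP read 88.38, 79.49 and 77.74 FPKM (fragments scaled to transcript length and library depth) under Scramble, 7.49, 7.77 and 4.30 under Si-FIBP#1 and 7.13, 5.92 and 8.21 under Si-FIBP#2. The log2 fold change in limma was -3.50 (SE 0.18, adjusted p = 9.4e-07) and -3.36 (SE 0.18, adjusted p = 1.4e-06). The depth, estimated from the steps between low values, was 20150000 to 23800000 fragments per sample. The carcinoma and mesenchymal markers KRT8, KRT18 and VIM were abundant, whereas the other 3 epithelial markers in the list, KRT19, EPCAM and CDH1, stayed below 1 FPKM, as did all 4 lung lineage and all 7 blood and endothelial markers. All 3 abundant markers fell with both siRNAs, namely KRT18 (log2 fold change -1.19 and -1.45, adjusted p = 2e-05 and 6.9e-06 in limma), VIM (-0.49 and -0.72, adjusted p = 0.00512 and 0.00057) and KRT8 (-0.53 and -0.49, adjusted p = 0.00033 and 0.00054). Their part in the values of the 10 genes was not tested.

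The 10 genes spanned a wide range of levels in the Scramble samples. Mean levels were 23.6 FPKM for BTG1, 20.2 for ARRDC3, 12.7 for CCNG2, 7.24 for FOXO3 and 4.21 for FOXO4, and these 5 genes were above 1 FPKM in all 9 samples. The means of FOXO1, BTG2 and SESN3 were 0.51, 0.47 and 0.28 FPKM, that of ARRDC4 was 0.03, and TXNIP was listed at 0. FPKM is a level per length, so these levels can be put in order, and only FOXO1 and BTG2 had overlapping values among neighbours in this order.

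Genes were tested with limma on log2(FPKM + 1) when at least 3 samples had at least 1 FPKM, which left 14985 genes and 5 of the 10 genes, namely FOXO3, FOXO4, ARRDC3, CCNG2 and BTG1. With Si-FIBP#1, 3 of these 5 rose at an adjusted p below 0.05 (FOXO4, ARRDC3 and CCNG2), against 27.8% of all tested genes. With Si-FIBP#2, 3 of 5 also rose (FOXO4, ARRDC3 and BTG1), against 31.1% of all tested genes. FOXO4 missed the threshold under Si-FIBP#2 in 13 of 19 alternative analyses. The count was then 2 with, for example, median ratio scaling, Ensembl transcripts only or 2 groups only. Neither siRNA lowered any of the 5 at this threshold, against 19.9% and 17.7% of all tested genes, and at an unadjusted p below 0.05 the counts were also 3 and 3, all of them increases. No gene of the 5 changed more than 2-fold, the size used by the study to call a change, which 5.66% and 5.05% of all tested genes did. The median log2 fold change of the 5 genes was 0.29 and 0.25, compared with 0.07 and 0.11 over all tested genes. The comparisons under Scramble share the control samples, and the 5 genes were not tested against the background.

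FOXO4, the X-linked member of the family (chrX:71096197-71103535 in GENCODE release 29), passed the test as higher, whereas FOXO3 did not and FOXO1 was below the filter. It read 3.99, 4.50 and 4.14 FPKM under Scramble, 6.18, 6.28 and 5.83 under Si-FIBP#1 and 5.72, 4.90 and 4.94 under Si-FIBP#2. All 6 FIBP-depleted samples were above the Scramble samples, and the Si-FIBP#2 samples lay between the other groups. The fit gave a log2 fold change of 0.45 under Si-FIBP#1 (SE 0.087, adjusted p = 0.0023 in limma) and 0.25 under Si-FIBP#2 (SE 0.087, adjusted p = 0.0402). The increase under Si-FIBP#1 passed in all 19 alternative analyses. That under Si-FIBP#2 missed the threshold in 13 of the 19, among them leaving out replicate 1 or 3 of Scramble, 1 or 2 of Si-FIBP#1 and 1 or 3 of Si-FIBP#2, and its adjusted p ranged from 0.0234 to 0.161. Scaling each sample by its median ratio gave 0.17 under Si-FIBP#2 (adjusted p = 0.161). The transcript ENST00000374259 (3644 nt) made up 85.4%, 98.3% and 90.9% of the mean FOXO4 level in the Scramble, Si-FIBP#1 and Si-FIBP#2 groups.

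FOXO3 (chr6:108559835-108684774), the most abundant of the 3 FOXO mRNAs when its assembled transcript is included, did not pass the test with either siRNA. Its levels were 6.90, 7.62 and 7.21 FPKM under Scramble, 8.18, 7.78 and 8.50 under Si-FIBP#1 and 7.03, 6.91 and 6.96 under Si-FIBP#2. The Si-FIBP#1 samples were all above the Scramble samples and the Si-FIBP#2 samples lay within their range. The log2 fold change was 0.15 (95% confidence interval -0.0077 to 0.31, adjusted p = 0.107) and -0.048 (-0.21 to 0.11, adjusted p = 0.603) in limma. FOXO3 has a near-identical copy, FOXO3B, which was listed at 2.14 to 4.86 FPKM, and how reads shared by the copies were divided is not stated, so the FOXO3 level is uncertain to that extent. The gene value was also split over ENST00000343882, ENST00000406360 and an assembled transcript of nearly the same length, with no stable share between samples. The assembled transcript made up 42.2%, 48.3% and 51.1% of the mean level in the Scramble, Si-FIBP#1 and Si-FIBP#2 groups. Without it the mean level of FOXO3 did not exceed that of FOXO4 in any group. With Ensembl transcripts only, the log2 fold change was 0.0055 (adjusted p = 0.983) and -0.24 (adjusted p = 0.283).

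FOXO1 (chr13:40469953-40666597), the factor best known from liver and insulin signalling, was low. It read 0.39, 0.67 and 0.47 FPKM under Scramble, 0.71, 0.74 and 0.67 under Si-FIBP#1 and 0.76, 1.07 and 0.85 under Si-FIBP#2, and these values correspond to an estimated 47 to 128 fragments per sample. The Si-FIBP#2 samples were all above Scramble, while the lowest Si-FIBP#1 sample equalled the highest Scramble sample at 0.67. FOXO1 was left out by the filter on low values, and in a fit with no filter its log2 fold change was 0.18 (adjusted p = 0.315) and 0.33 (adjusted p = 0.0635), the latter 0.40 (adjusted p = 0.0465) without Scramble replicate 2 and 0.33 (adjusted p = 0.026) with no trend. The other 14 of 16 alternatives did not pass, with values of 0.26 to 0.72 over all 16.

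Among the alpha-arrestins, which are adaptor proteins that link membrane proteins to ubiquitin ligases, ARRDC3 rose with both siRNAs. ARRDC3 (chr5:91368724-91383359), known for promoting the turnover of the beta-adrenergic receptor and of integrin beta 4, read 20.74, 19.94 and 19.81 FPKM under Scramble, 23.30, 24.31 and 28.12 under Si-FIBP#1 and 28.37, 24.48 and 26.47 under Si-FIBP#2. The 6 depleted samples lay above the 3 Scramble samples, and the siRNA groups overlapped each other. The log2 fold change was 0.31 (SE 0.081, adjusted p = 0.0113) and 0.37 (SE 0.081, adjusted p = 0.00404) in limma, and it passed the threshold in all 19 alternatives with either siRNA. The main transcript ENST00000265138 (4239 nt) held 86.1% to 89.2% of the level. The antisense gene ARRDC3-AS1 overlaps exons of ARRDC3 and read 1.10 to 3.51 FPKM, and use of strand in the counting is not stated, so a small part of the ARRDC3 value may belong to it.

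TXNIP (chr1:145992435-145996600), the thioredoxin-interacting protein that also limits glucose uptake, was listed at 0 in 8 of 9 samples and at 0.04 FPKM in the first Si-FIBP#1 sample, which corresponds to about 1 fragment, so no direction can be given. PRDX2, a peroxiredoxin that most cells use, was also listed at only 0.00 to 0.70 FPKM (named after its values were seen). Whether the TXNIP mRNA was absent from the cells or missed in the processing was not tested. ARRDC4 (chr15:97960698-97973838), its close relative, read 0.02, 0.06 and 0.01 FPKM under Scramble, 0.10, 0.11 and 0.17 under Si-FIBP#1 and 0.14, 0.12 and 0.10 under Si-FIBP#2. These levels rest on an estimated 2, 5 and 1 fragments under Scramble, 9, 10 and 13 under Si-FIBP#1 and 11, 10 and 8 under Si-FIBP#2. Both siRNA groups lay above Scramble and overlapped each other, but ARRDC4 did not reach the filter. In the fit with no filter its log2 fold change of FPKM + 1 was 0.13 (adjusted p = 0.0351) and 0.12 (adjusted p = 0.0443). With a pseudocount of 0.1, chosen after seeing the data, the values were 0.81 (adjusted p = 0.0533) and 0.77 (adjusted p = 0.0617), and over all 16 alternatives to that fit the threshold was missed in 7 under Si-FIBP#1 and in 13 under Si-FIBP#2. The dimer partners MLXIP (MondoA) and MLX were expressed, with Scramble means of 12.9 and 19.8 FPKM. MLX rose with both siRNAs (log2 fold change 0.23 and 0.34, adjusted p = 0.0388 and 0.006 in limma), and MLXIP did not pass (0.15 and 0.13). They are named here after their values were seen, as the known regulators of TXNIP and ARRDC4.

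CCNG2 (chr4:77157151-77433388) encodes cyclin G2, an atypical cyclin that is high in cells that stop dividing. It read 12.88, 12.64 and 12.59 FPKM under Scramble, 15.53, 15.86 and 15.80 under Si-FIBP#1 and 11.41, 13.02 and 11.43 under Si-FIBP#2. The Si-FIBP#1 samples were tightly grouped above all others, while Si-FIBP#2 and Scramble overlapped. The fit gave a log2 fold change of 0.29 under Si-FIBP#1 (SE 0.067, adjusted p = 0.00585) and -0.084 under Si-FIBP#2 (SE 0.067, adjusted p = 0.328) in limma. The siRNAs differed from each other by -0.37 (Si-FIBP#2 minus Si-FIBP#1, SE 0.067, adjusted p = 0.00652), against 15.4% of all tested genes that differed at this threshold, and this difference passed in all 19 alternatives. Under median ratio scaling CCNG2 was lower under Si-FIBP#2 than under Scramble (log2 fold change -0.17, adjusted p = 0.0438). The short transcript ENST00000502280 (1459 nt) averaged 5.97, 8.37 and 5.79 FPKM in the Scramble, Si-FIBP#1 and Si-FIBP#2 groups, and the long transcript ENST00000316355 (5471 nt) averaged 4.53, 5.02 and 4.16.

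BTG1 (chr12:92140278-92145897) encodes an antiproliferative protein that recruits the CCR4-NOT deadenylase to mRNA. It read 22.78, 25.24 and 22.91 FPKM under Scramble, 23.50, 23.77 and 25.82 under Si-FIBP#1 and 28.92, 28.81 and 30.27 under Si-FIBP#2. The Si-FIBP#2 samples were above all others, and the Si-FIBP#1 and Scramble samples overlapped. In limma the log2 fold change was 0.042 under Si-FIBP#1 (SE 0.063, adjusted p = 0.617) and 0.30 under Si-FIBP#2 (SE 0.063, adjusted p = 0.00346). The difference of 0.26 between the siRNAs (SE 0.063, adjusted p = 0.0238) missed the threshold in 5 of 19 alternatives, which were median ratio scaling (adjusted p = 0.0505) and leaving out replicate 1 or 2 of Si-FIBP#1 or replicate 1 or 3 of Si-FIBP#2 (0.0557 to 0.0887). The increase was carried by ENST00000673901 (1375 nt), which read 18.68 to 20.62 FPKM under Scramble and 25.13 to 26.48 under Si-FIBP#2. The long transcript ENST00000256015 (4629 nt) read 3.26 to 4.62 and 2.80 to 3.79 FPKM. Because a long transcript yields more fragments per FPKM, estimated BTG1 fragments, scaled to library depth, differed less and overlapped, at 37.6, 42.9 and 35.9 under Scramble and 40.8, 43.8 and 45.8 under Si-FIBP#2. The size of the BTG1 increase therefore depends on how reads were divided between these transcripts.

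BTG2 (chr1:203305491-203309602), an antiproliferative relative of BTG1, was low and read 0.47, 0.42 and 0.52 FPKM under Scramble, 0.87, 0.79 and 0.83 under Si-FIBP#1 and 0.48, 1.07 and 0.84 under Si-FIBP#2. The Si-FIBP#1 samples were above Scramble, and the first Si-FIBP#2 sample was within the Scramble range. Without the filter the log2 fold change was 0.32 (adjusted p = 0.133) and 0.28 (adjusted p = 0.186) in limma, and without that first Si-FIBP#2 sample they were 0.32 (adjusted p = 0.0476) and 0.41 (adjusted p = 0.029). In a fit of 2 groups only, the value under Si-FIBP#1 also passed (0.32, adjusted p = 0.0366). The other 14 of 16 alternatives under Si-FIBP#1 and 15 of 16 under Si-FIBP#2 did not pass, and without the second Si-FIBP#2 sample the value was 0.17 (adjusted p = 0.388).

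SESN3 (chr11:95165513-95232541) encodes sestrin 3, which restrains mTORC1 through GATOR2. It read 0.27, 0.32 and 0.25 FPKM under Scramble, 0.27, 0.21 and 0.32 under Si-FIBP#1 and 0.41, 0.37 and 0.35 under Si-FIBP#2. The Si-FIBP#2 samples lay above the others, but without the filter the log2 fold changes of -0.016 (adjusted p = 0.921) and 0.11 (adjusted p = 0.233) did not pass in limma. The antisense gene AP000787.1 overlaps SESN3 exons and read 0.81 to 1.80 FPKM, more than SESN3 itself, so the SESN3 value is uncertain if strand was not used.

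The siRNAs were also compared directly, over the 5 tested genes. CCNG2 and BTG1 differed as given above, in opposite directions. For the other 3, Si-FIBP#2 minus Si-FIBP#1 was -0.20 for FOXO3 (95% confidence interval -0.36 to -0.041, adjusted p = 0.0903), -0.20 for FOXO4 (-0.40 to -0.0048, adjusted p = 0.158) and 0.066 for ARRDC3 (-0.11 to 0.25, adjusted p = 0.638) in limma. The FIBP level itself differed by 0.13 (-0.28 to 0.54, adjusted p = 0.686).

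**Figure D1:**
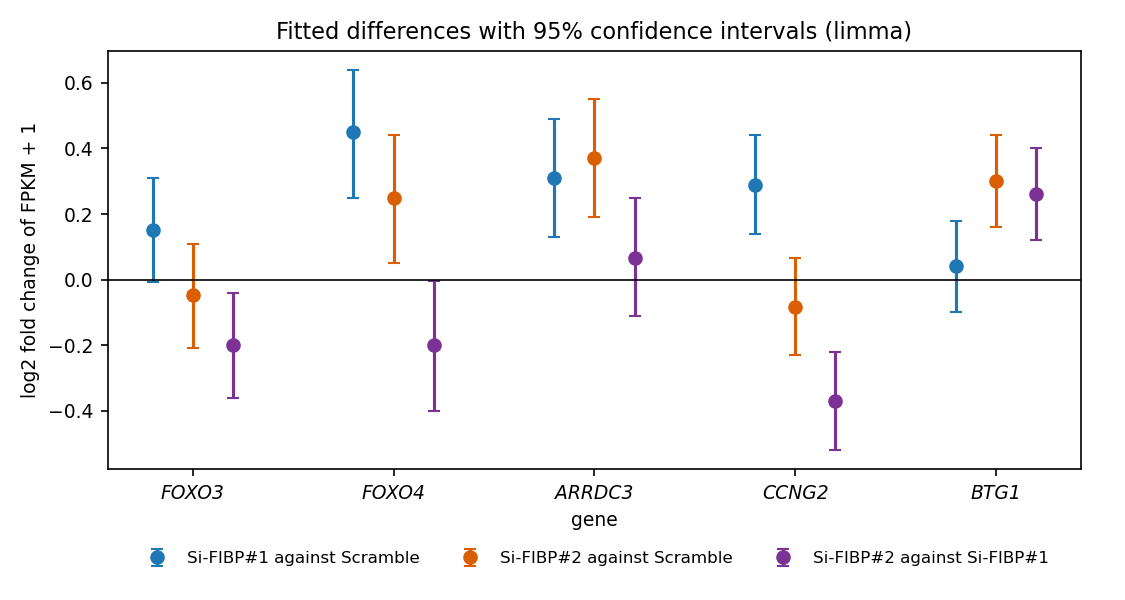
log2 fold change of FPKM + 1 (y axis) with 95% confidence intervals from limma for the 5 tested genes (x axis), coloured by comparison. Intervals for ARRDC3 and FOXO4 lie above 0 with both siRNAs, CCNG2 is above 0 under Si-FIBP#1 alone, and BTG1 is above 0 under Si-FIBP#2 alone.

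Other genes known as FOXO targets moved in both directions. Of 30 listed names, 29 were found in the expression values and 21 were tested. With Si-FIBP#1, 9 rose and 7 fell, and under Si-FIBP#2, 8 rose and 5 fell, with median log2 fold changes of 0.073 and 0.16. Over all tested genes 27.8% rose and 19.9% fell under Si-FIBP#1, 31.1% rose and 17.7% fell under Si-FIBP#2, and the medians were 0.073 and 0.111. None of the gene lists was tested against this background. In this list SELENOP and PIK3IP1, named after their values were seen, were below 1 FPKM in all Scramble samples. They entered the test only through FIBP-depleted samples, so the filter favoured a rise. SELENOP counts among the genes that rose with each siRNA, and PIK3IP1 among those that rose under Si-FIBP#1. BCL2L11, the pro-apoptotic factor BIM, averaged 3.22 FPKM under Scramble, 11.6 under Si-FIBP#1 and 9.75 under Si-FIBP#2 (log2 fold change 1.58 and 1.34, adjusted p = 9.2e-06 and 2.8e-05 in limma). PINK1, a kinase of mitochondrial quality control, averaged 20.4, 39.3 and 41.3 FPKM (0.91 and 0.98, adjusted p = 2.2e-05 and 1.7e-05). KLF2, a factor of quiescent T cells and endothelium, averaged 11.02, 3.33 and 4.49 FPKM and fell (-1.44 and -1.12, adjusted p = 0.00037 and 0.00164). The CDK inhibitors were named after their values were seen. CDKN1B (p27) averaged 40.2, 56.5 and 48.1 FPKM and rose with both (0.48 and 0.25, adjusted p = 9.1e-05 and 0.00382). CDKN1A (p21) averaged 48.2, 22.6 and 54.6 FPKM, so that it fell under Si-FIBP#1 (-1.06, adjusted p = 1.4e-06) and rose slightly under Si-FIBP#2 (0.18, adjusted p = 0.0352), an increase that missed the threshold in 9 of 19 alternatives, with 0.081 (adjusted p = 0.296) under median ratio scaling.

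**Figure D2:**
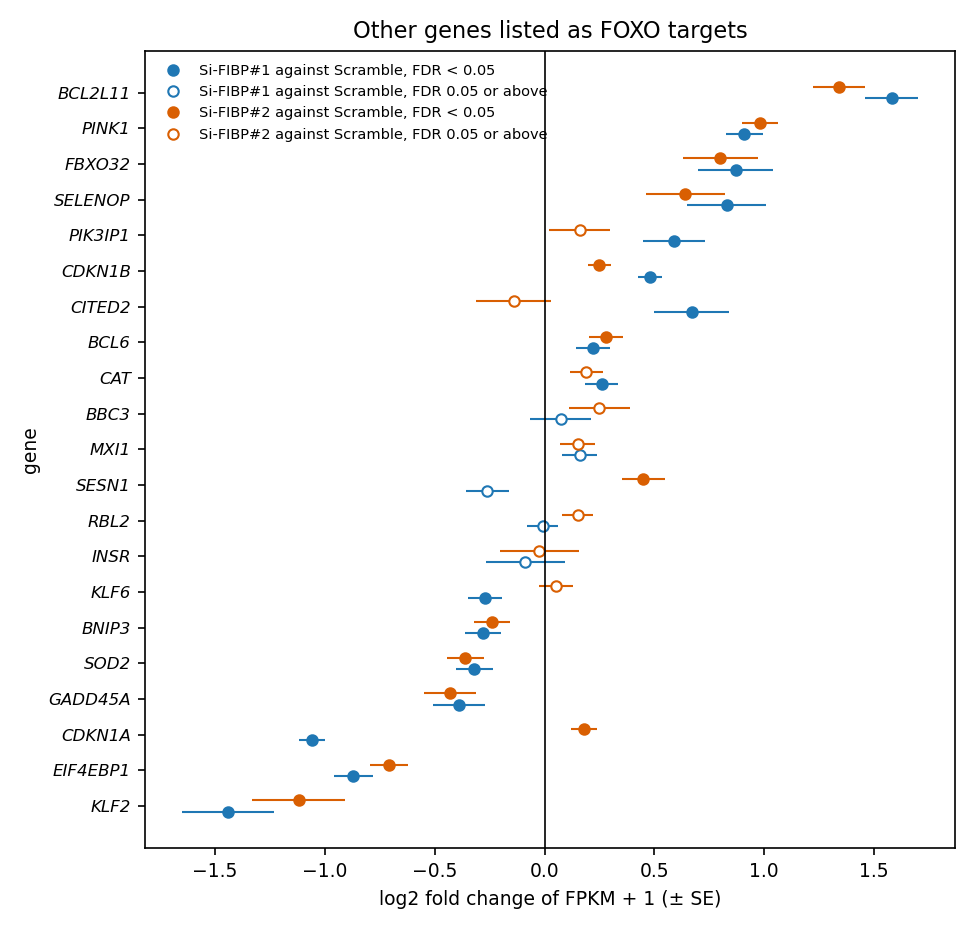
log2 fold change of FPKM + 1 ± SE (x axis) for the 21 tested genes of the list of other FOXO targets (y axis), ordered by the mean of both siRNAs, with filled points for an adjusted p below 0.05. BCL2L11 and PINK1 are at the top, KLF2 is at the bottom, and CDKN1A is far apart between the siRNAs.

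Upstream of FOXO, the list of the insulin, PI3K and AKT route had 22 tested genes. Of these, 7 rose and 2 fell under Si-FIBP#1, and 12 rose and 1 fell under Si-FIBP#2, against 27.8% and 19.9%, and 31.1% and 17.7%, of all tested genes. The medians were 0.18 and 0.28. None changed 2-fold, against 5.66% and 5.05% of all tested genes. SGK1, a kinase that phosphorylates FOXO3, averaged 18.5, 13.2 and 9.77 FPKM and fell (-0.46 and -0.87, adjusted p = 0.0125 and 0.00036 in limma). RICTOR, a subunit of the mTORC2 complex that activates AKT and SGK1, rose (0.33 and 0.48, adjusted p = 0.00506 and 0.00064), as did PDPK1, the kinase PDK1 (0.42 and 0.30, adjusted p = 0.00117 and 0.00821). Of 17 tested genes for proteins that bind or modify FOXO, 1 rose and 11 fell under Si-FIBP#1, and 2 rose and 11 fell under Si-FIBP#2, with medians of -0.26 and -0.24, beside the same shares and medians of all tested genes. Examples are the 14-3-3 gene YWHAH (69.3, 38.5 and 37.9 FPKM, log2 fold change -0.83 and -0.85, adjusted p = 2.5e-06 for both), the methyltransferase PRMT1 (-0.45 and -0.56, adjusted p = 0.00029 and 8.1e-05) and the ubiquitin ligase MDM2 (-0.53 and -0.46, adjusted p = 0.00033 and 0.00074).

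In the family lists, relatives of the 10 genes moved in both directions. The beta-arrestin ARRB2 averaged 23.6, 14.9 and 15.9 FPKM and fell (-0.63 and -0.54, adjusted p = 7.8e-05 and 0.00021 in limma), and ARRB1 rose from a low level (0.55 and 0.47, adjusted p = 0.0139 and 0.026). The alpha-arrestins ARRDC1 (0.067 and 0.026) and ARRDC2 (-0.028 and -0.095) did not pass, and ARRDC5 was near 0 FPKM. BTG3 averaged 33.4, 19.6 and 23.7 FPKM and fell (-0.74 and -0.48, adjusted p = 1.9e-05 and 0.00029). TOB2 averaged 15.6, 23.6 and 19.8 FPKM and rose (0.57 and 0.32, adjusted p = 0.00011 and 0.00299), and TOB1 gave 0.10 (adjusted p = 0.286) and -0.20 (adjusted p = 0.0478), while BTG4 was below the filter. Of the relatives of CCNG2, CCNG1 did not pass (-0.15 and 0.059), and CCNI rose under Si-FIBP#2 (0.24, adjusted p = 0.00407) and gave 0.12 (adjusted p = 0.0833) under Si-FIBP#1. SESN2 rose with both siRNAs (0.46 and 0.76, adjusted p = 0.013 and 0.00085), and SESN1 averaged 4.56, 3.66 and 6.63 FPKM (-0.26 and 0.45, adjusted p = 0.0548 and 0.0041), the lower value under Si-FIBP#1 passing in 6 of 19 alternatives.

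The partners of these families were mixed as well, and the counts stand beside the 27.8% higher and 19.9% lower of all tested genes under Si-FIBP#1 and the 31.1% and 17.7% under Si-FIBP#2. In the CCR4-NOT deadenylase, 3 of 12 subunits rose and 3 fell under Si-FIBP#1, and 5 rose and 3 fell under Si-FIBP#2. CNOT9 averaged 30.1, 13.0 and 11.5 FPKM and fell more than 2-fold (-1.16 and -1.32, adjusted p = 1e-05 and 5.4e-06 in limma), and CNOT2 (-0.58 and -0.49) and CNOT3 (-0.39 and -0.52) fell too. In the thioredoxin system, 4 of 11 rose and 3 fell under Si-FIBP#1, and 4 rose and 4 fell under Si-FIBP#2. The reductase TXNRD1 averaged 217, 107 and 103 FPKM and fell (-1.01 and -1.08, adjusted p = 1e-05 and 7.9e-06), SRXN1 fell (-0.55 and -0.47), and mitochondrial TXN2 rose from 50.2 to 88.0 and 84.8 FPKM (0.80 and 0.74, adjusted p = 2.2e-06 and 3.7e-06). In the MondoA pathway 2 of 6 rose and 2 fell with each siRNA, among them the glucose transporter SLC2A1 (-0.47 and -0.66) and the hexokinases HK2 (-0.36 and -0.32) and HK1 (0.22 and 0.49). Of 7 NEDD4-type ligases that bind arrestin-domain proteins, 2 rose and 1 fell with each siRNA, and WWP1 rose with both (0.36 and 0.43). Of 7 tested genes of the sestrin and GATOR2 list, 2 rose and 2 fell under Si-FIBP#1, and 3 rose and 1 fell under Si-FIBP#2, with WDR59 up (0.42 and 0.46) and MIOS down (-0.23 and -0.31). The MIOS call under Si-FIBP#1 was lost without replicate 1 or 3 of Scramble or of Si-FIBP#1 (adjusted p = 0.0579 to 0.0868).

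Proliferation genes moved in 1 direction. All 16 fell with each siRNA, against 19.9% and 17.7% of all tested genes, and the sum of their levels was 1900 to 1945 FPKM under Scramble, 638.7 to 680.1 under Si-FIBP#1 and 761.2 to 862.5 under Si-FIBP#2. Examples are FOXM1 (78.1, 21.8 and 28.0 FPKM), CDK1 (114, 33.4 and 44.4 FPKM) and CCNB1 (281, 84.3 and 110 FPKM). The part of this decrease in the values of the 10 genes was not tested.

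For a description of likeness, the log2 levels of each of the 10 genes were correlated over the 9 samples with those of 9958 or 9959 other genes. The 9 samples form 3 groups, so a high correlation mostly reports the same order of groups, and no p is given. The closest genes were EXOSC1 (r = 0.975) and TNFRSF21 for FOXO4, SMC6 (r = 0.963) and PRRC2C for FOXO3, ORMDL1 (r = 0.971) and PHF3 for ARRDC3, SBNO1 (r = 0.988) and PLAGL2 for CCNG2, and UBE2V2 (r = 0.981) and ANAPC16 for BTG1. For the low genes they were BRPF3 and ATG2B for FOXO1, VCPIP1 and COA7 for ARRDC4, DUXAP9 and IPPK for BTG2, and AC019209.3 and BPTF for SESN3, and TXNIP was left out because it was at 0 in 8 of 9 samples.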

How the data were processed

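Total RNA of 9 H1299 samples was sequenced by the authors as poly(A)-selected paired-end libraries. The authors deposited FPKM per transcript, rounded to 2 decimals, covering Ensembl transcripts as well as transcripts newly assembled from the reads. The unit was inferred from the values. The submitters' processing notes name HISAT2 and StringTie, and versions, genome build, annotation release and use of strand are not given in the sources used here. FPKM was summed per gene. FPKM is not a count, so no count test was run. A gene entered the test if 3 or more samples reached 1 FPKM. The fit was made on log2(FPKM + 1) in 1 model of all 9 samples (limma 3.58.1 with a mean-variance trend, R 4.3.3) with Benjamini-Hochberg adjustment, and the procedure was checked on simulated data with few changed genes, where it called nearly all large changes and almost none of the small ones. A pseudocount understates changes of low genes. Depth was estimated from steps between low values, with a mean cosine of 0.752 to 0.811, and covers counting error only. Samples were grouped by their labels.

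The 10 genes and the gene lists were chosen with earlier results of these data known. Named genes were the 10 genes, FIBP, from each list at most 3 genes with the largest mean change among those passing with both siRNAs in 1 direction, the paralogues of the 10 genes in the lists, and the 2 genes most like each of the 10. Markers at low levels and genes that overlap or copy one of the 10 are also named, and any further gene outside this rule is pointed out. Alternatives were a pseudocount of 0.1, no filter or 5 FPKM, TPM, median ratio scaling, Ensembl transcripts only, 2 groups only, the replicate number as a block, no trend, no fold change threshold, motifs only before the start, and each sample left out. No filter together with a pseudocount of 0.1 was added after seeing the data. Positions are from GENCODE release 29 (GRCh38), which holds 38 of the 41 Ensembl transcripts of the 10 genes, and promoters are from RefSeq. Proteins were not analysed here. One marker gene of the cell line is not reported here. Tables were made with Python 3.11.15, pandas 2.3.3 and scipy 1.17.1.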

Additional observations from a re-analysis of the deposited data

Results flagged for a closer look

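The siRNAs gave different values for 2 of the 5 tested genes by the test of the difference itself (Si-FIBP#2 minus Si-FIBP#1, log2 scale, limma). CCNG2 differed by -0.37 (adjusted p = 0.00652) and BTG1 by 0.26 (adjusted p = 0.0238). Among all tested genes 15.4% differed at an adjusted p below 0.05. The samples of the siRNA groups did not overlap for CCNG2 and BTG1. They also did not overlap for 4 genes whose difference did not pass in limma. These were FOXO3 and FOXO4 (adjusted p = 0.0903 and 0.158) and, in the fit with no filter, FOXO1 and SESN3 (adjusted p = 0.565 and 0.296). The share of all genes without overlap was not counted. Other named genes that differed in the same test were CDKN1A by 1.24 (adjusted p = 2.4e-05), SESN1 by 0.71 (adjusted p = 0.00203), CDK1 by 0.40 (adjusted p = 0.00781), CCNB1 by 0.37 (adjusted p = 0.00975), FOXM1 by 0.34 (adjusted p = 0.026), TOB1 by -0.30 (adjusted p = 0.0239), HK1 by 0.27 (adjusted p = 0.0481), BTG3 by 0.26 (adjusted p = 0.0251), TOB2 by -0.24 (adjusted p = 0.0369) and CDKN1B by -0.23 (adjusted p = 0.022). Of these, the differences of HK1, TOB2, FOXM1, CDKN1B, BTG3 and TOB1 missed the threshold in 15, 12, 9, 6, 5 and 4 of 19 alternatives.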

How the results depend on the processing

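Of 477 values of the 10 genes other than TXNIP recomputed under the alternatives, 426 kept their direction and their side of the threshold, 38 lost significance, 6 gained it and 7 changed sign, and no call changed sign. Of 988 counts of genes called in the lists, 895 stayed within 1.5 times the reported count and 93 did not. With no fold change threshold the counts of the 5 tested genes called went from 0 to 3, 3 and 2 for Si-FIBP#1, Si-FIBP#2 and their difference. Median ratio scaling left 1 gene that differed between the siRNAs and made 1 gene lower with Si-FIBP#2. Leaving out 1 sample gave 1 to 2 genes that differed between the siRNAs, and 1268 to 2821 of all genes. A pseudocount of 0.1 raised the genes called at 2-fold from 848 and 757 to 1498 and 1411, and to 1863 and 1831 with no filter as well. Under median ratio scaling 3596 genes rose and 3400 fell with Si-FIBP#1, and 3567 rose and 3421 fell with Si-FIBP#2, compared with 4170 and 2976, and 4653 and 2656. The sign changes, all in values that did not pass, were BTG1 with Si-FIBP#1 (-0.0024 with TPM and -0.014 with the median ratio), ARRDC1 with Si-FIBP#1 (-0.14 with Ensembl transcripts only, and -0.03 to 0.12 with samples left out) and with Si-FIBP#2 (-0.068 with the median ratio, -0.058 with Ensembl transcripts only, and -0.028 to 0.085 with samples left out), CCNG1 with Si-FIBP#2 (-0.037 with the median ratio, and -0.04 to 0.21 with samples left out), and with 1 sample left out also ARRDC2 with Si-FIBP#1 (-0.075 to 0.051), SESN3 with Si-FIBP#1 (-0.046 to 0.017), and ARRDC4 (-0.025 to 0.019) and BTG2 (-0.15 to 0.093) between the siRNAs.

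In the replicate check, samples with the same number correlated at -0.057 to 0.10 after removal of the group means. Samples of different groups and numbers correlated at -0.14 to 0.049. This check cannot tell whether samples with the same number shared a culture or batch. With the replicate block 3, 2 and 2 of the 5 tested genes were called in the comparisons with Si-FIBP#1, with Si-FIBP#2 and between the siRNAs, none at 2-fold, and 7081, 7287 and 2177 of all genes, and at 2-fold 853 and 760. Promoter matches before the start only left 3 genes with a FOXO site. DESeq2 was not run because no counts were used. The calls of HK1, CNOT3, MIOS and HK2 with Si-FIBP#1 were lost in 13, 9, 4 and 1 of 19 alternatives, those of TOB1, CNOT3, MIOS and HK2 with Si-FIBP#2 in 13, 1, 1 and 1 of 19, and that of ARRB1 with Si-FIBP#2 in 7 of 18. SESN1 and CCNI with Si-FIBP#1 and CCNG1 with Si-FIBP#2 passed in 6, 1 and 1 of 19. The values of ARRDC4, BTG2, SESN3 and FOXO1 rest on at most 128 estimated fragments, and why TXNIP was listed at 0 was not tested.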
